A study of Mus musculus with 47 samples.

Results

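The genes followed here are Six2 and its relatives and the Pax, Irx, Dlx, Msx, Nkx and Lhx transcription factor genes, read in medullary thymic epithelial cells (mTECs) of mice. A gene was a member when it was protein-coding and its GRCm38 symbol was made of one of these 7 stems followed only by digits and hyphens. The rule found 52 genes among 53402 identifiers in the adult table and 55471 in the neonatal table, and every member had a row in both. They comprised 9 Pax genes, 6 genes of the Six2 family, and 6 Irx, 6 Dlx, 3 Msx, 14 Nkx and 8 Lhx genes. Most of them encode homeodomain proteins, but Pax1 and Pax9 carry a paired domain without a homeodomain, so the name homeobox does not cover every member.

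Homeobox genes encode DNA-binding proteins that give cells of the embryo their place and organ identity. Pax1, Pax9 and Six4 act in the pharyngeal pouch endoderm from which the thymus forms, whereas most other members are known from organs such as muscle, brain, kidney, thyroid, heart and limb. In many tissues such developmental genes are classical targets of Polycomb repressive complex PRC2, which needs its subunit EED to methylate histones. Mature mTECs transcribe many genes of other organs, in part under the control of the nuclear protein Aire.

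RNA was sequenced in 47 libraries of sorted thymic epithelial cells from mice labelled C57BL/6. Adult mice of 4 to 6 weeks gave 7 WT and 4 AireKO libraries of mTEChi, the cells with high MHC class II, and 8 WT and 4 AireKO libraries of mTEClo, the cells with low MHC class II. Neonatal mice of 1 to 6 days gave 5 Ctrl, 3 EEDcKO, 3 AireKO and 3 AireEEDdKO libraries of mTEChi, and 3 Ctrl, 4 EEDcKO and 3 AireEEDdKO libraries of mTEClo. EEDcKO mice carried floxed Eed deleted by Cre under Foxn1, a gene of all thymic epithelial cells, so that cortical cells were targeted as well. AireEEDdKO mice carried an Aire knockout in addition, and AireKO mice carried the Aire knockout alone. The labels give the neonatal controls as Ctrl, with no alleles. Cells were sorted as CD45-, EpCAM+ and Ly51-, and some neonatal libraries were pools of both sexes. All adult AireKO libraries came from males, and neonatal AireKO and AireEEDdKO mice were 4 to 6 days old, older than some of the Ctrl and EEDcKO mice. In mTEClo, EEDcKO replicates 3 and 4 came from mice of 6 and 4 days, older than those of any Ctrl mTEClo library. The comparisons asked how these genes change as mTECs mature, when Aire is lost, and when PRC2 is lost with or without Aire. In bulk samples, fewer cells of a type and less RNA per cell cannot be told apart. The study describes its mTEChi values as those of single mice, although the labels call some neonatal libraries pools, so how far libraries are separate animals is not settled and p-values measure the spread between them.

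Library totals ran from 1602125 to 3938588 counts in adults and from 1578579 to 4817418 in neonates, of which 1001 to 4119 and 1110 to 6342 counts fell on the members. Aire RNA was far lower in AireKO than in WT mTEChi (17.1 to 39.3 against 753 to 921 CPM, the counts scaled to a library of 1000000). In adult WT mTEClo it was 19.6 to 128 CPM. Neonatal Ctrl had 324 to 333 CPM in mTEClo and 464 to 808 CPM in mTEChi, so the neonatal subsets lay closer in Aire than the adult ones. Eed ran from 10.7 to 19.8 CPM in neonatal EEDcKO mTEChi and from 20.4 to 38.8 CPM in Ctrl, and from 14.1 to 16.4 against 23.3 to 25.9 CPM in mTEClo. The 10 mTEC markers read here summed to between 1851 and 4915 CPM in every library. Of the adult libraries, 6 had no mitochondrial count (all 4 AireKO mTEChi and AireKO mTEClo replicates 3 and 4), and the other 17 had 6178 or more, so in adult mTEChi genotype and kind of library cannot be told apart. Neonatal EEDcKO mTEClo replicate 3, from mice of 6 days, had the highest Aire of its group (312 CPM against 60.6 to 234) and the highest Lhx1, Lhx3 and Msx3.

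Members lie in clusters on the genome. Within gaps of 1000000 bases, the 52 genes formed 36 loci, among them Irx1, Irx2 and Irx4 on chromosome 13, Irx3, Irx5 and Irx6 on chromosome 8, and groups that join families, such as Pax9 with Nkx2-1 and Nkx2-9 on chromosome 12. RefSeq promoter windows, which run from 250 bases before to 50 bases after a start on GRCm38.p6, were found for 38 members (46 windows). Their median was 18.5 CG dinucleotides per 300 bases against 7 over all 32851 windows, and 73.9% held 15 or more against 34.6% of all windows. The homeodomain core TAATTA, a palindrome read the same on both strands, was in 2.17% of member windows (1 window, of Msx2) and in 5.29% of all windows, and TATAAA on either strand was in 6.52% and 13.6%. The 250 bases upstream of 4 genes are printed as examples among members with a window: Irx2 and Msx1 rose without EED in 3 comparisons, and Lhx6 and Pax8 fell without Aire at both ages. Irx1 and Irx5 rose in the same 3 comparisons but had no window. Windows of Lhx6 held 11, 17 and 16 CG per 300 bases, and its printed bases are from the one with 16. The sequences are from RefSeq GRCm38.p6 and read 5′ to 3′ on the strand of the gene, with each CG in capitals. Irx2 lies on the plus strand at chr13:72628570-72628819 (19 CG), Msx1 on the minus strand at chr5:37824586-37824835 (20 CG), Lhx6 on the minus strand at chr2:36105409-36105658 (14 CG) and Pax8 on the minus strand at chr2:24475600-24475849 (6 CG).
Irx2: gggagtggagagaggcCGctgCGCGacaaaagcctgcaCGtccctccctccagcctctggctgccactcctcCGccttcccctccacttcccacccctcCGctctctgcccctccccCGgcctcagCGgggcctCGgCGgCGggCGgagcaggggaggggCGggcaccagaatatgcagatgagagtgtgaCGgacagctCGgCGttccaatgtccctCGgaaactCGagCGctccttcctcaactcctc
Msx1: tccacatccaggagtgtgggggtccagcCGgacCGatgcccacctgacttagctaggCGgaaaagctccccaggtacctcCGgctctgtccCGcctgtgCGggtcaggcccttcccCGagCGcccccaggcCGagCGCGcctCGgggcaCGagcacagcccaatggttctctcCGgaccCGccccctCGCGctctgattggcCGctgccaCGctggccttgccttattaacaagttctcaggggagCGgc
Lhx6: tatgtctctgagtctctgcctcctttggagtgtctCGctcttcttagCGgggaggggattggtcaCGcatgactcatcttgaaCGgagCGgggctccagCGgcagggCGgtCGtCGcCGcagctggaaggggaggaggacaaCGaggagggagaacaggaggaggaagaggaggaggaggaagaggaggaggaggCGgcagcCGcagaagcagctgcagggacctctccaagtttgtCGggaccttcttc
Pax8: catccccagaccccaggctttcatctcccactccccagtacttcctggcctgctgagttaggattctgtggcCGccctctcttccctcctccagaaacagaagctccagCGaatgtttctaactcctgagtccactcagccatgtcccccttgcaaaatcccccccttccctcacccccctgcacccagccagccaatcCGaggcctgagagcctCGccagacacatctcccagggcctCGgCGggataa
CG content differed between these 4 windows, with Pax8 lowest. No chromatin measure of these windows was analysed here.

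A few genes, pharyngeal pouch factors among them, held a large share of the member counts. Pax1, Pax9, Six2, Six4 and Six5 together held 69.3% to 72.7% of all member counts in adult WT mTEClo and 36.7% to 41% in adult WT mTEChi. In neonates they held 70.1% to 78.7% in Ctrl mTEClo and 43.1% to 52.2% in Ctrl mTEChi. Six2 and Six5 are described beside the pouch factors because of their levels, a choice made after their values were seen. Per kilobase of exon, the mean levels in adult WT mTEChi were 20.3 ± 1.94 CPM (SD, n = 7) for Pax9, 13.2 ± 3.43 for Six2, 12.8 ± 2.44 for Pax1 and 8.99 ± 1.37 for Six4. The neighbours Six2 and Pax1 in that order differed by less than their spread. In adult WT mTEClo the order of these genes was Six2 (38.4 ± 6.04), Pax9 (34.0 ± 1.75), Pax1 (26.1 ± 3.73) and Six4 (12.5 ± 0.866, n = 8 each), followed by Six5 (6.99 ± 1.33). There Six2 and Pax9 differed by less than their spread. At the other end, 12 members passed the filter on low counts in neither table: Dlx1, Dlx6, Irx6, Lhx8, Nkx1-1, Nkx2-2, Nkx2-5, Nkx3-2, Nkx6-1, Nkx6-3, Pax4 and Six6. Their counts summed over a whole table were 0 to 56 in adults and 8 to 86 in neonates, and Nkx1-1 alone had no adult count. Tests covered 27 members in adults and 40 in neonates, the 27 among them, and a member of low level could pass the filter through the group in which it was high.

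Pax1, needed for the pouch and for parathyroid and thymus growth, was lower in mTEChi than in mTEClo at both ages. Its level was 41.4 to 70.0 (median 62.5) CPM in adult WT mTEChi and 96.2 to 142 (median 115) CPM in mTEClo, with no overlap. In neonates it was 91.9, 103, 104, 115 and 135 CPM in Ctrl mTEChi and 262, 279.7 and 478 CPM in Ctrl mTEClo, again apart. Its log2 fold change came to -1.0 (SE 0.10, adjusted p = 1e-09 by edgeR) in adults and -1.62 (SE 0.16, adjusted p = 4.2e-07 by edgeR) in neonates, and the adult call rests on the 2-fold limit, since it was lost in separate fits without mTEClo WT replicate 8 and mTEChi WT replicates 1, 2 and 4 (log2 fold changes -0.97 to -0.94). Six2, a factor of kidney progenitors, was lower too, with log2 fold changes of -1.51 (SE 0.17, adjusted p = 5.7e-09 by edgeR) in adults and -1.37 (SE 0.20, adjusted p = 2.1e-05 by edgeR) in neonates. Six5, a factor of lens and muscle, had log2 fold changes of -1.78 (SE 0.18, adjusted p = 5.4e-10 by edgeR) and -2.53 (SE 0.36, adjusted p = 1.9e-05 by edgeR). Pax9 and Six4 passed the test at the 2-fold limit in neither age. For Pax9, the paralog of Pax1, the log2 fold changes were -0.74 (SE 0.06, adjusted p = 3.6e-11 by edgeR) in adults and -0.99 (SE 0.14, adjusted p = 1.3e-05 by edgeR) in neonates. Six4 gave -0.47 (SE 0.08, adjusted p = 8e-06 by edgeR) and -0.67 (SE 0.09, adjusted p = 1.9e-05 by edgeR). Of 8 cortical epithelial markers, 6 were also lower in neonatal Ctrl mTEChi than mTEClo (summed level 663.6 to 1327 against 2663 to 3965 CPM), whereas in adults 3 were higher and 2 lower, and their part in the neonatal Pax1 values was not tested.

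**Figure D1:**
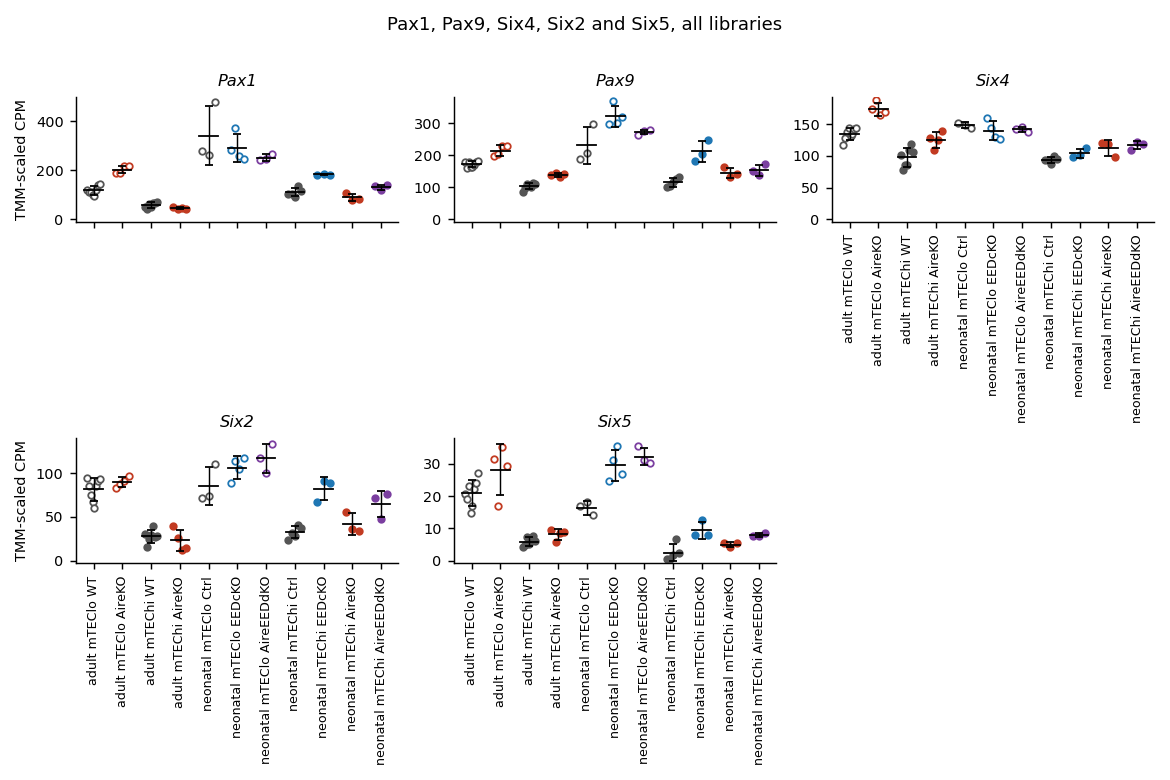
Level of Pax1, Pax9, Six4, Six2 and Six5 in CPM (y axis, from 0) in the 11 groups (x axis). Points are libraries (filled mTEChi, open mTEClo), bars the mean and whiskers the SD; Pax1, Six2 and Six5 sit higher in mTEClo than in mTEChi of controls at both ages.

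Many other tested members were higher in mTEChi than in mTEClo of controls. In adults, 17 of 27 tested members were called higher (63%, against 23.7% of all tested genes) and 4 lower (against 12.4%), where a call is an edgeR adjusted p under 0.05 with at least a 2-fold change. In neonates 20 of 40 were called higher (50%, against 13.8%) and 3 lower (against 6.92%). The median log2 fold change over tested members was 2.02 in adults and 1.47 in neonates (1.43 with members at 0 in mTEClo set to their bound), while over all tested genes it was 0.00443 and -0.00505. The adult and neonatal comparisons share no library. They shared 12 members called higher (70.6% of the adult and 60% of the neonatal list) and 3 called lower, Pax1, Six2 and Six5 (75% and 100%). Of the 20 neonatal higher members, 13 were tested in adults. The same overlap over all tested genes was not computed. By family, all 3 Lhx, both Dlx, 4 of 5 Nkx and 5 of 8 Pax members tested in adults were higher in mTEChi. Leaving out each library in turn kept all 17 adult calls and 5 of the 20 neonatal ones (Dlx3, Nkx6-2, Pax3 and Pax7 among them). Without Ctrl mTEClo replicate 1, 2 or 3, 12, 11 or 14 members were called in either direction, against 23 with all libraries. Ctrl mTEChi replicates 1 and 2 came from mice of 6 days, whereas no Ctrl mTEClo library was from mice older than 3 days, and with age as a term 13 members were called higher and 3 lower. Thymocyte markers were higher in mTEChi for 5 and lower for 1 of 6 tested in adults (69.77 to 86.17 CPM summed in WT mTEChi against 17.81 to 28.51 in WT mTEClo), and higher for 3 of 7 in neonates. Endothelial markers were higher for 4 of 6 in adults and 3 of 6 in neonates, and thyroid and lung markers for 7 of 9, with 1 lower, in adults and 5 of 10 in neonates. Mesenchyme markers were higher for 3 and lower for 3 of 9 in adults and higher for 4 of 10 in neonates, and endocrine markers were higher for 1 and lower for 4 of 10 in adults and higher for 4 of 9 in neonates. The part of these cells in the member values was not tested.

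Pax5, which commits B cells and is active in the developing midbrain, stood first among the maturation calls by adjusted p. In adults it was 28.2 to 53.6 (median 47.7) CPM in WT mTEChi and 2.87 to 5.10 (median 3.95) CPM in WT mTEClo, with a log2 fold change of 3.43 (SE 0.17, adjusted p = 1.4e-16 by edgeR). The neonatal level was 40.3, 40.7, 41.6, 46.1 and 49.5 CPM in Ctrl mTEChi and 10.7, 17.9 and 31.2 CPM in Ctrl mTEClo. The adult groups lay far apart and the neonatal groups were closer. The neonatal log2 fold change was 1.09 (SE 0.43, adjusted p = 0.049 by edgeR), and this call was lost in 7 of 8 leave-one-out fits (0.88 to 1.12).

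Dlx3, a factor of epidermis and hair, was 18.0 to 35.8 (median 24.8) CPM in adult WT mTEChi and 1.20 to 4.45 (median 3.51) CPM in mTEClo. Neonatal libraries had 16.9, 20.6, 20.8, 23.6 and 27.4 CPM in Ctrl mTEChi and 7.88, 10.1 and 11.6 CPM in mTEClo. It was thus higher in every mTEChi library of adults than in any mTEClo library, with log2 fold changes of 3.10 (SE 0.24, adjusted p = 3.5e-12 by edgeR) in adults and 1.13 (SE 0.32, adjusted p = 0.0096 by edgeR) in neonates. Msx3, a neural tube factor, was 7.14 to 18.7 (median 12.9) CPM in adult WT mTEChi and 0 to 1.05 (median 0.422) CPM in mTEClo, and 8.66, 8.71, 9.63, 11.7 and 12.4 against 3.38, 3.38 and 4.56 CPM in neonatal Ctrl. The adult groups were apart, with a log2 fold change of 4.73 (SE 0.36, adjusted p = 2e-12 by edgeR), and the neonatal call, at 1.41 (SE 0.56, adjusted p = 0.05 by edgeR) just under the threshold, was lost in all 8 leave-one-out fits (1.34 to 1.6). Nkx2-6, known from pharyngeal endoderm and heart, was 7.20 to 16.8 (median 10.7) CPM in adult WT mTEChi and 0 to 1.15 (median 0.128) CPM in mTEClo, with a log2 fold change of 5.15 (SE 0.40, adjusted p = 3.7e-12 by edgeR). Neonatal libraries had 3.38, 8.09, 9.90, 10.5 and 10.6 against 3.04, 3.86 and 3.94 CPM, and Nkx2-6 was not called (log2 fold change 1.30, SE 0.66, adjusted p = 0.12 by edgeR).

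Pax7, a factor of muscle satellite cells and neural crest, was 4.96 to 30.0 (median 21.6) CPM in adult WT mTEChi and 0 to 2.54 (median 0.793) CPM in mTEClo. In neonatal Ctrl it was 16.9, 19.1, 20.1, 24.8 and 32.9 CPM in mTEChi and 2.25, 6.66 and 7.77 CPM in mTEClo. Both mTEChi groups lay above the mTEClo groups without overlap, with log2 fold changes of 4.17 (SE 0.37, adjusted p = 6e-11 by edgeR) and 1.95 (SE 0.38, adjusted p = 0.00051 by edgeR). Lhx1, a LIM factor of kidney and head organizer, was 5.4 to 7.55 (median 7.14) CPM in adult WT mTEChi and 0 to 1.27 (median 0) CPM in mTEClo, a log2 fold change of 4.98 (SE 0.45, adjusted p = 9.4e-11 by edgeR). In neonates it was 4.62, 6.79, 8.71, 10.1 and 10.7 against 0, 2.46 and 3.04 CPM (log2 fold change 2.00, SE 0.78, adjusted p = 0.046 by edgeR), a call that 7 of 8 leave-one-out fits lost (1.62 to 2.49). Lhx6, a LIM factor of cortical interneurons and teeth, was 3.00 to 10.4 (median 6.07) CPM in adult WT mTEChi and 0 to 0.255 (median 0) CPM in mTEClo, in all 128 against 1 count, a 169-fold ratio (95% counting interval 29.8 to 6720, edgeR adjusted p = 3.2e-11). In neonates Lhx6 was 3.98, 5.28, 6.19, 9.24 and 11.0 against 1.40, 1.69 and 2.03 CPM, with a log2 fold change of 2.02 (SE 0.73, adjusted p = 0.034 by edgeR) that was lost in separate fits without mTEClo Ctrl replicates 1, 2 and 3 and mTEChi Ctrl replicates 2 and 3 (log2 fold changes 1.79 to 2.20).

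**Figure D2:**
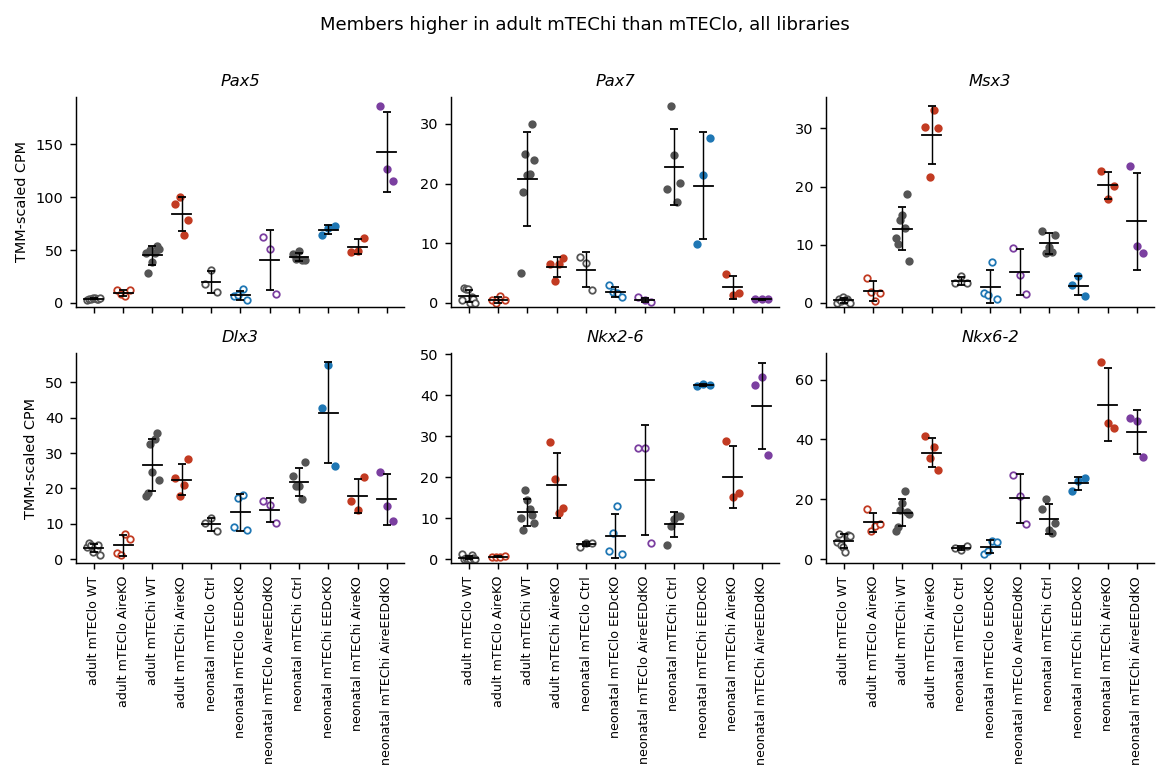
Level of Pax5, Pax7, Msx3, Dlx3, Nkx2-6 and Nkx6-2 in CPM (y axis, from 0) in the 11 groups (x axis). Points are libraries (filled mTEChi, open mTEClo), bars the mean and whiskers the SD; in adult WT the mTEChi libraries of Pax5, Pax7, Msx3 and Dlx3 all lie above the mTEClo libraries, as do the AireKO mTEChi libraries above the AireKO mTEClo libraries.

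In adult AireKO, 16 members were called (against 35.2%). Of these, 10 were called higher in mTEChi than in mTEClo (against 18.5% of all tested genes) and 6 lower (against 16.7%). Irx1, Irx2 and Msx1 were among the lower ones there. Irx1, a factor of heart, lung and neural patterning, was at 0 in all 4 libraries of AireKO mTEChi and 0.541, 0.596, 1.25 and 1.70 CPM in AireKO mTEClo, so it was at least 3.42-fold lower (edgeR adjusted p = 0.011). Msx1, a factor of craniofacial and limb mesenchyme, was 0, 0.685, 0.878 and 1.25 CPM in AireKO mTEChi and 4.87, 5.64, 5.96 and 6.31 CPM in AireKO mTEClo, a log2 fold change of -2.98 (SE 0.39, adjusted p = 2e-07 by edgeR). In WT, Msx1 was 3.6 to 7.14 (median 5.14) CPM in mTEChi and 5.25 to 9.07 (median 6.74) CPM in mTEClo and was not called (log2 fold change -0.39, SE 0.19, adjusted p = 0.071 by edgeR). Pax5, Msx3 and Dlx3 were higher in AireKO mTEChi than in AireKO mTEClo, with log2 fold changes of 3.10 ± 0.20, 3.98 ± 0.38 and 2.30 ± 0.33 (each ± SE). Same-numbered AireKO libraries deviated together, and with the replicate as a block 17 members were called in place of 16.

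Members of the Lhx and Pax families were lower without Aire in mTEChi of both ages. In adults, 12 of 27 tested members were called lower (44.4%, against 17.8% of all tested genes) and 3 higher (against 5.63%). In neonates 13 of 40 were called lower (32.5%, against 12.8%) and 1 higher (against 3.56%). In mTEChi without EED, AireEEDdKO against EEDcKO had 17 of 40 lower (42.5%, against 8.36%) and 1 higher (against 4.99%). The median log2 fold change of tested members was -0.36, -1.45 and -1.15 (neonatal -1.37 with members at 0 in AireKO set to their bound), and over all tested genes -0.0149, 0.0346 and -0.0124. The adult and neonatal lists of lower members shared 9 genes (75% and 69.2%), namely Lhx1, Lhx3, Lhx6, Msx1, Nkx1-2, Pax2, Pax3, Pax7 and Pax8. Of the 13 neonatal members, 9 were tested in adults. The neonatal list and the AireEEDdKO list, from 4 different groups, shared 11 (84.6% and 64.7%). The share of all tested genes common to these lists was not computed. All 12 adult calls of lower held in every leave-one-out fit, and 7 of 13 neonatal and 9 of 17 AireEEDdKO calls did. With the kind of library as a term, 6 members were called lower in adult mTEChi, and 5 of these (Irx1, Irx2, Irx4, Msx1 and Pax3) were among the 12, whereas Lhx1, Lhx3, Lhx6, Nkx1-2, Pax2, Pax7 and Pax8 did not pass. Their log2 fold changes with that term were still negative, at -5.61, -1.6, -4.34, -1.94, -2.22, -3.15 and -1.91. Lhx6 aside, the edgeR adjusted p was 0.078, 0.62, 0.14, 0.33, 0.19 and 0.87 in the same order. Only AireKO mTEClo held both kinds of library, so the term is estimated there. For members with few or no counts in that group it cannot decide. A p that misses the threshold does not show that these members were unaltered. The neonatal AireKO and EEDcKO comparisons with Ctrl share their Ctrl libraries.

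Lhx6 fell in mTEChi of both ages. It was 3.00 to 10.4 (median 6.07) CPM in adult WT mTEChi and 0, 0.342, 0.409 and 0.439 CPM in AireKO, in all 128 against 3 counts, a 23-fold ratio (95% counting interval 7.69 to 113, edgeR adjusted p = 3.5e-07). The neonatal level was 3.98, 5.28, 6.19, 9.24 and 11.0 CPM in Ctrl and 0 in all 3 libraries of AireKO, at least 15.4-fold lower (edgeR adjusted p = 0.0015). Both comparisons were without overlap. Without EED, Lhx6 was 1.89, 14.4 and 39.6 CPM in EEDcKO and 0.578, 0.962 and 1.77 CPM in AireEEDdKO, for a log2 fold change of -3.98 (SE 0.83, adjusted p = 0.0019 by edgeR). With the kind of library as a term the adult log2 fold change was -4.34. None of the 132 adult counts of Lhx6 was in AireKO mTEClo, where that term is estimated, so this fit cannot decide.

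Pax8, a factor of thyroid and kidney, was 6.30 to 20.4 (median 13.6) CPM in adult WT mTEChi and 0, 0.342, 0.439 and 0.835 CPM in AireKO. Neonatal libraries had 5.54, 8.09, 8.20, 11.3 and 13.8 CPM in Ctrl and 0.685, 0.689 and 0.848 CPM in AireKO. AireKO libraries lay below all control libraries at both ages, with log2 fold changes of -4.81 (SE 0.63, adjusted p = 3.6e-07 by edgeR) and -3.53 (SE 1.06, adjusted p = 0.016 by edgeR), the latter lost in separate fits without mTEChi AireKO replicates 2 and 3 (log2 fold changes -3.67 to -3.53). In EEDcKO mTEChi the 3 libraries ran over a wide range, 0.629, 2.19 and 26.0 CPM, and AireEEDdKO had 0.578, 0.589 and 0.962 CPM. Those groups overlapped, and the log2 fold change of -3.36 (SE 1.14, adjusted p = 0.037 by edgeR) was lost in separate fits without mTEChi EEDcKO replicate 1 and mTEChi AireEEDdKO replicates 1, 2 and 3 (log2 fold changes -3.70 to -0.95). Pax8 shares 6.1% of its exon bases with a transcript on the opposite strand, and strand was not used in counting.

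Pax3, a factor of neural crest and muscle precursors, was 7.80 to 10.5 (median 9.06) CPM in adult WT mTEChi and 0, 1.23, 2.09 and 2.74 CPM in AireKO. Neonatal libraries had 5.15, 6.05, 6.86, 8.09 and 10.7 CPM in Ctrl and 0, 0.848 and 1.37 CPM in AireKO. These groups were apart at both ages, with log2 fold changes of -2.51 (SE 0.37, adjusted p = 1.7e-06 by edgeR) and -3.13 (SE 0.65, adjusted p = 0.0011 by edgeR). Without EED the groups lay at 10.5, 13.8 and 17.3 CPM in EEDcKO and 11.6, 20.8 and 21.2 CPM in AireEEDdKO, and the log2 fold change of 0.31 (SE 0.40, adjusted p = 0.62 by edgeR) was not called. Pax2, a factor of kidney, ear and eye, was 4.8 to 11.1 (median 7.50) CPM in adult WT mTEChi and 0.418, 1.23, 1.37 and 3.07 CPM in AireKO, a log2 fold change of -2.32 (SE 0.38, adjusted p = 8.8e-06 by edgeR). In neonates Pax2 was 4.22, 4.50, 7.26, 8.53 and 8.66 CPM in Ctrl and 0.565, 0.685 and 1.38 CPM in AireKO (log2 fold change -3.00, SE 0.78, adjusted p = 0.006 by edgeR), with the call lost without mTEChi AireKO replicate 3 (log2 fold change -2.62). It was 7.43, 13.6 and 25.5 CPM in EEDcKO and 0, 1.18 and 1.28 CPM in AireEEDdKO (log2 fold change -4.08, SE 0.73, adjusted p = 0.00046 by edgeR), and these groups did not overlap either. Pax7 was 16.9, 19.1, 20.1, 24.8 and 32.9 CPM in neonatal Ctrl and 1.38, 1.70 and 4.8 CPM in AireKO, a log2 fold change of -3.20 (SE 0.46, adjusted p = 3.5e-05 by edgeR). Its adult AireKO libraries, 3.68, 6.50, 6.58 and 7.52 CPM, overlapped the WT range (log2 fold change -1.80, SE 0.37, adjusted p = 0.00019 by edgeR).

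Lhx1 was 5.4 to 7.55 (median 7.14) CPM in adult WT mTEChi and 0, 0.878, 1.25 and 1.37 CPM in AireKO, with no overlap and a log2 fold change of -2.81 (SE 0.46, adjusted p = 8.8e-06 by edgeR). In neonates it was 4.62, 6.79, 8.71, 10.1 and 10.7 CPM in Ctrl and 0, 0.689 and 1.37 CPM in AireKO, in all 127 against 3 counts, an 18.0-fold ratio (95% counting interval 6.01 to 88.3, edgeR adjusted p = 0.0087). That call was lost without mTEChi AireKO replicate 3 (log2 fold change -2.94). In EEDcKO it was 13.8, 22 and 33.5 CPM and in AireEEDdKO 0.642, 1.16 and 1.18 CPM (log2 fold change -4.54, SE 0.93, adjusted p = 0.0015 by edgeR), again apart. Lhx3, a LIM factor of pituitary and motor neurons, was 2.40 to 6.34 (median 5.10) CPM in adult WT mTEChi and 0, 0.409, 0.439 and 0.685 CPM in AireKO (log2 fold change -3.41, SE 0.55, adjusted p = 8e-06 by edgeR). The neonatal level was 1.13, 3.17, 4.40, 5.20 and 5.39 CPM in Ctrl and 0, 0.565 and 0.685 CPM in AireKO, in all 62 against 3 counts, an 8.77-fold ratio (95% counting interval 2.86 to 43.7, edgeR adjusted p = 0.022). The neonatal call was lost in separate fits without mTEChi AireKO replicates 1, 2 and 3 (log2 fold changes -3.36 to -2.68), so it did not hold without any 1 of the AireKO libraries. Outside the naming rule, Lhx2 and Nkx2-1 were at 0 in all 3 neonatal AireKO mTEChi libraries and were at least 8.55-fold and 8.91-fold lower than in Ctrl, values noted after they were seen. Dlx2, at 0 in the same 3 libraries, was at least 3.54-fold lower. Nkx1-2 had 63 against 3 counts, an 8.91-fold ratio (95% counting interval 2.91 to 44.4, edgeR adjusted p = 0.0039). Six3, the last of the 13 lower members, had 28 against 1 count, an 11.9-fold ratio (95% counting interval 1.96 to 486, edgeR adjusted p = 0.019). The Six3 call was lost in separate fits without mTEChi AireKO replicates 1, 2 and 3 (log2 fold changes -5.53 to -3.03). The Dlx2 call was lost without mTEChi AireKO replicate 3. In AireEEDdKO against EEDcKO the lower members beside those described were Dlx3, Dlx4, Irx3, Irx5, Nkx1-2, Pax6, Pax7 and Six3, with log2 fold changes from -4.96 to -1.18. Of these, Dlx3 and Pax7 kept the call in every leave-one-out fit. Irx3 and Irx5 lost it in 5 such fits each, Pax6 in 4, Dlx4 and Nkx1-2 in 3 each and Six3 in 2. Dlx2, Nkx2-1 and Nkx2-9 were lower as well, each with 1 to 3 counts in AireEEDdKO. Msx3 was the higher one (log2 fold change 2.13, SE 0.61, adjusted p = 0.014 by edgeR). Its call was lost in separate fits without mTEChi EEDcKO replicate 3 and mTEChi AireEEDdKO replicate 1 (log2 fold changes 1.56 to 1.74).

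Msx1 was 3.6 to 7.14 (median 5.14) CPM in adult WT mTEChi and 0, 0.685, 0.878 and 1.25 CPM in AireKO, without overlap and with a log2 fold change of -2.85 (SE 0.37, adjusted p = 3e-07 by edgeR). Neonatal libraries had 2.38, 3.30, 3.47, 3.94 and 5.39 CPM in Ctrl and 0, 0 and 0.565 CPM in AireKO, in all 57 against 2 counts, a 12.1-fold ratio (95% counting interval 3.20 to 102, edgeR adjusted p = 0.0048). EEDcKO mTEChi had 16.1, 21.4 and 28.0 CPM and AireEEDdKO 5.20, 6.48 and 7.06 CPM (log2 fold change -1.81, SE 0.45, adjusted p = 0.006 by edgeR). In each of these comparisons the group without Aire was the lower one. Irx1, Irx2 and Irx4 were called lower in adult AireKO mTEChi, and no Irx gene was called in neonatal AireKO mTEChi. Irx4, a factor of heart ventricle, was 5.58 to 16.5 (median 10.3) CPM in WT mTEChi and 1.03, 2.51, 2.86 and 3.07 CPM in AireKO (log2 fold change -2.28, SE 0.34, adjusted p = 2e-06 by edgeR). In neonates Irx4 was 3.85, 6.79, 7.39, 13.9 and 15.8 CPM in Ctrl and 9.59, 10.3 and 14.1 CPM in AireKO, and it was not called (log2 fold change 0.40, SE 0.44, adjusted p = 0.53 by edgeR). Irx1 was 0.620 to 7.14 (median 3.32) CPM in adult WT mTEChi and 0 in all 4 libraries of AireKO, at least 12.2-fold lower (edgeR adjusted p = 2.8e-05). The difference between ages was not tested, since the tables were fitted apart. The 10 mesenchyme markers moved with these members in adult mTEChi, where 6 of 9 tested were lower and 1 higher in AireKO, and their summed level was 228.6 to 247.3 CPM against 316.6 to 471.6 CPM in WT. Thymocyte markers were lower there for 5 of 6 tested (41.08 to 53.46 CPM summed against 69.77 to 86.17 in WT) and endothelial markers for 3 of 6 (70.17 to 95.16 against 109.2 to 123.5). In neonatal AireKO mTEChi 4 of 10 mesenchyme markers were lower and 2 higher (353.1 to 446.9 CPM summed against 448.6 to 484 in Ctrl), 4 of 10 thyroid and lung markers were lower (92.49 to 119.8 against 116.7 to 158.1), 1 of 7 thymocyte and 1 of 6 endothelial markers were lower (the latter 59.91 to 75.43 against 86.64 to 119.1), and 2 endocrine markers were higher and 2 lower of 9. In AireEEDdKO against EEDcKO mTEChi, 2 mesenchyme markers were higher and 3 lower of 10 (663.1 to 827.1 against 793.5 to 1094 CPM summed), 2 thyroid and lung markers were higher and 4 lower of 10, and 2 of 6 endothelial markers were lower. The part of these cells in the member values was not tested.

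**Figure D3:**
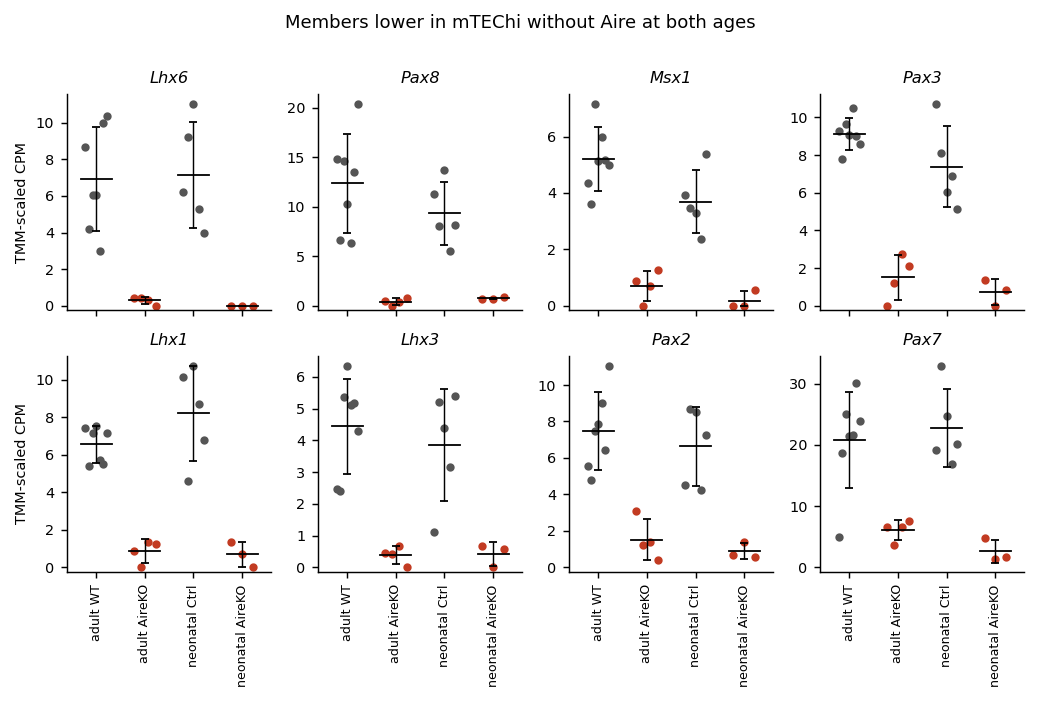
Level of Lhx6, Pax8, Msx1, Pax3, Lhx1, Lhx3, Pax2 and Pax7 in mTEChi in CPM (y axis, from 0), in adult WT and AireKO and neonatal Ctrl and AireKO (x axis). Points are libraries, bars the mean and whiskers the SD; AireKO libraries lie below the control libraries at both ages except for adult Pax7, where the ranges overlap.

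Few members rose without Aire. Msx3, Dlx5 and Nkx6-2 were called higher in adult AireKO mTEChi, and in neonates Nkx6-2. Nkx6-2, a factor of oligodendrocytes and spinal cord, was 9.29 to 22.8 (median 15.8) CPM in adult WT mTEChi and 29.7, 34.0, 37.7 and 41.2 CPM in AireKO (log2 fold change 1.15, SE 0.21, adjusted p = 4.7e-05 by edgeR). Neonatal libraries had 8.71, 9.63, 11.9, 16.9 and 20.2 CPM in Ctrl and 43.8, 45.5 and 65.8 CPM in AireKO (log2 fold change 1.99, SE 0.29, adjusted p = 4.3e-05 by edgeR). It was named after its values were seen, and 12.9% of its exon bases overlap Inpp5a on the opposite strand. Scaling by library size alone left 0 members called higher in adult mTEChi, with log2 fold changes of 0.99 for Msx3 and 0.99 for Nkx6-2. Dlx5, a factor of bone and jaw, had a log2 fold change of 1.03 (SE 0.28, adjusted p = 0.0027 by edgeR) there and lost the call in separate fits without mTEChi WT replicates 1, 2, 4 and 7 and mTEChi AireKO replicate 4 (log2 fold changes 0.89 to 0.99). It was 0.67 with age as a term and 0.12 with the kind of library as a term (edgeR adjusted p = 0.08 and 0.95). Msx3 and Nkx6-2 kept the call with the kind term (2.69 and 1.35), and Nkx6-2 lost it with age (0.94).

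In adult mTEClo, 5 members were called (against 8.3%). Of these, 4 were called higher in AireKO (Dlx5, Msx3, Nkx6-2 and Pax5, against 4.42% of all tested genes) and 1 lower (Pax2, against 3.88%). Their log2 fold changes were 1.34 ± 0.45, 1.9 ± 0.60, 1.05 ± 0.26 and 1.21 ± 0.24 for the higher members and -1.86 ± 0.68 for Pax2 (± SE). None of these 5 calls held in every leave-one-out fit: Dlx5 and Pax5 were lost without AireKO replicate 4 (0.71 and 0.99), Msx3 without AireKO replicate 1 (1.35), Nkx6-2 in separate fits without mTEClo WT replicates 3, 4 and 5 and mTEClo AireKO replicate 1 (log2 fold changes 0.90 to 1.0) and Pax2 in separate fits without mTEClo WT replicates 1, 2, 5 and 7 and mTEClo AireKO replicates 2, 3 and 4 (log2 fold changes -1.9 to -1.65). AireKO mTEClo libraries came from mice of 5 or 6 weeks and WT from mice of 4 or 5 weeks, and with age as a term Pax5 alone of the 5 was called. In AireKO mTEClo 5 of 8 cortical and 3 of 7 myoid markers were higher, with 0 lower. Of 9 mesenchyme markers 1 was higher and 2 lower there (357.8 to 425.9 CPM summed against 560.1 to 716.1 in WT). The part of these markers was not tested. In neonatal mTEClo, AireEEDdKO against EEDcKO had 4 higher (Dlx5, Nkx2-4, Nkx6-2 and Pax5, against 3.45%) and Pax6, a factor of eye and pancreas, lower (against 1.85%). Nkx6-2 (2.20 ± 0.34) and Pax5 (2.40 ± 0.45) kept the call in every leave-one-out fit, but with only the groups compared none of the 5 was called (edgeR adjusted p = 0.083 for Nkx6-2 and 0.14 for Pax5). Dlx5 lost it in separate fits without mTEClo EEDcKO replicates 1, 2 and 4 and mTEClo AireEEDdKO replicates 1 and 2 (log2 fold changes 0.85 to 1.09), Nkx2-4 in separate fits without mTEClo EEDcKO replicates 1, 2, 3 and 4 and mTEClo AireEEDdKO replicates 1 and 2 (log2 fold changes 2.41 to 3.69) and Pax6 in separate fits without mTEClo EEDcKO replicates 1, 2, 3 and 4 and mTEClo AireEEDdKO replicates 1, 2 and 3 (log2 fold changes -1.18 to -0.81). The count went from 5 to 2 without EEDcKO replicate 1, AireEEDdKO replicate 1 or AireEEDdKO replicate 2, and to 3 without EEDcKO replicate 2 or 4. Myoid markers were higher for 6 of 10 in AireEEDdKO mTEClo, with 0 lower (471.1 to 869.1 CPM summed against 274.8 to 464.6 in EEDcKO). Endocrine markers were higher for 3 and lower for 1 of 9, 2 of 4 parathyroid markers were lower, and 0 of 10 mesenchyme markers were called. The part of these cells in the member values was not tested.

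The effect of Aire differed between mTEChi and mTEClo of adults for 5 members, all with the more negative change in mTEChi (against 11% of all tested genes with that direction, and 0 members against 2.7% with the other). Pax1, the pouch factor of the 5, was 41.4, 43.0, 46.2 and 51.3 CPM in AireKO mTEChi and 188, 188, 215 and 215 CPM in AireKO mTEClo, beside the WT values given above. The log2 change was -0.36 ± 0.13 in mTEChi and 0.79 ± 0.11 in mTEClo, neither of them called, and the difference was -1.15 (SE 0.17, adjusted p = 1.8e-05 by edgeR). Cortical epithelial markers moved with it. In mTEClo 5 of 8 were higher in AireKO (795.2 to 959.9 CPM summed against 522.3 to 662.9 in WT), and 4 of 8 had the more negative change in mTEChi in the same test, with 0 the other way. So did 4 of 9 mesenchyme markers, 5 of 7 myoid markers, with 1 the other way, and 2 of 6 thymocyte markers. Their part in the member values was not tested. Msx1 differed by -2.59 (SE 0.45, adjusted p = 9.3e-05 by edgeR) and Irx4 by -2.58 (SE 0.48, adjusted p = 0.0002 by edgeR), where mTEClo values were 1.84 to 6.38 (median 3.24) CPM in WT and 3.28, 3.89, 4.38 and 5.95 CPM in AireKO for Irx4. Irx1 had a fitted difference of -6.67 (edgeR adjusted p = 0.0018), which depends on a group at 0 and is no bound. Lhx3 differed by -4.04 (SE 1.36, adjusted p = 0.029 by edgeR), and its call was lost in separate fits without mTEClo AireKO replicates 2 and 4 (log2 fold changes -4.13 to -2.96).

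Members of every family were higher without EED in at least 1 comparison. In mTEChi, 18 of 40 tested members were called higher in EEDcKO than in Ctrl (45%, against 8.48% of all tested genes) and 1 lower (against 5.4%). In mTEClo 15 of 40 were called higher (37.5%, against 9.51%) and 2 lower (against 6.22%). In mTEChi without Aire, AireEEDdKO against AireKO had 11 higher (27.5%, against 6.69%) and 0 lower (against 2.78%, and 9.47% in either direction). In that last comparison 15 members had an unadjusted edgeR p under 0.05 in either direction, and DESeq2 called 10 higher and 0 lower. The median log2 fold change of tested members was 1.29, 0.869 and 0.94, and over all tested genes it was -0.00118, -0.00575 and 0.0343. Summed over all members, the level was 1242 to 1395 CPM in EEDcKO mTEChi against 735 to 809 in Ctrl, and 1227 to 1493 CPM in EEDcKO mTEClo against 975 to 1327 in Ctrl. These 3 comparisons share no library. By age and sex, some mTEChi and mTEClo libraries of Ctrl and EEDcKO could come from the same mice, and this was not tested. Dlx5, Irx1, Irx2, Irx5, Msx1 and Six3 were called higher in all 3, of 24 members called higher in any. The mTEChi and mTEClo lists shared 11 members (61.1% and 73.3%). How often all tested genes were shared between these comparisons was not computed. Of the 40 tested members, Lhx4, Lhx5, Msx2, Pax9 and Six4 were among those called in none of the 14 comparisons.

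**Figure D4:**
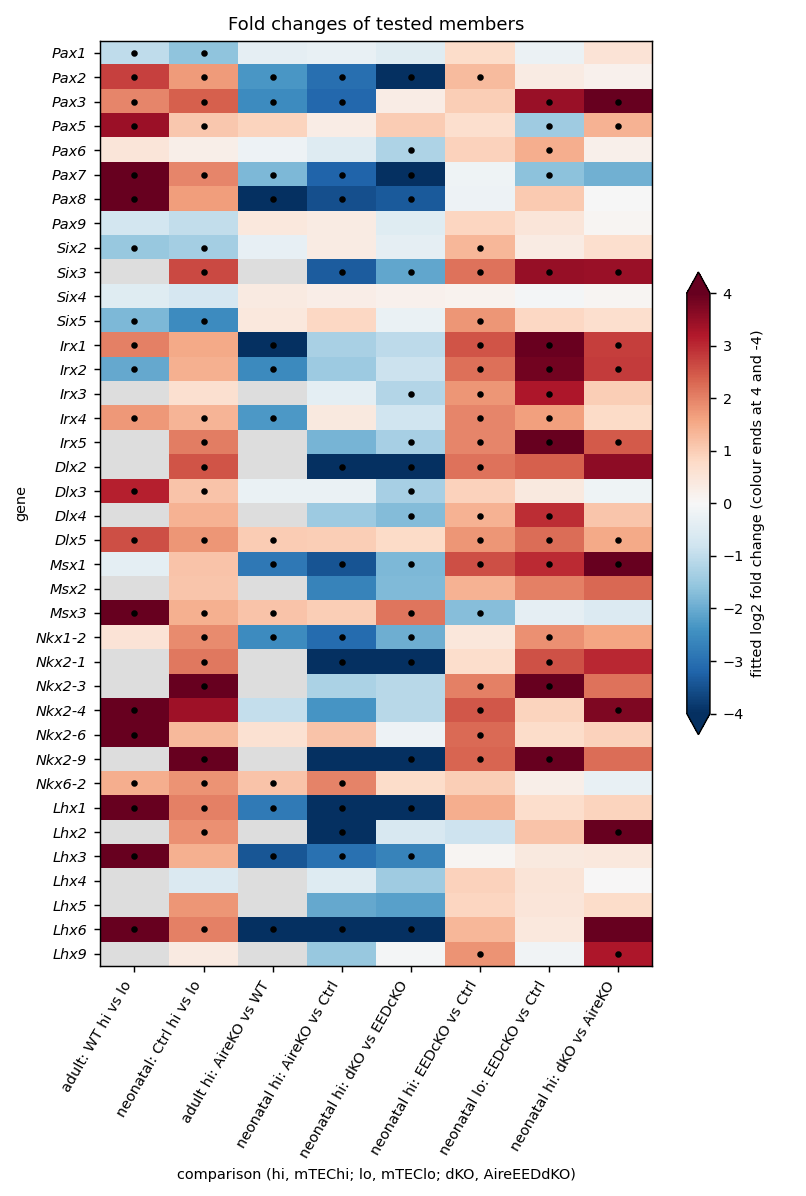
Fitted log2 fold change (colour, ends at -4 and 4) of 38 of the tested members (rows, by family) in 8 comparisons (columns). A black dot marks a call and grey a member not tested; the Irx rows are raised in the EEDcKO columns, and many Lhx and Pax rows are lowered in the AireKO columns of mTEChi.

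All 5 tested Irx genes, which pattern heart, limb and nervous system, rose in both EEDcKO comparisons, although the list joins 2 loci and neighbours are not independent. Irx1 was 1.93, 2.11, 2.89, 3.98 and 5.06 CPM in Ctrl mTEChi and 15.4, 18.4 and 19.8 CPM in EEDcKO, and 0, 1.41 and 2.07 CPM in AireKO and 4.62, 10.3 and 10.6 CPM in AireEEDdKO. In mTEClo it was 0.676, 1.13 and 1.40 CPM in Ctrl, 8.42, 12.9, 22.2 and 23.2 CPM in EEDcKO and 12.7, 19.6 and 26.2 CPM in AireEEDdKO. Each group without EED lay above its control. For Irx1 the log2 fold change came to 2.52 (SE 0.38, adjusted p = 4.2e-05 by edgeR) in mTEChi, 3.95 (SE 0.53, adjusted p = 9.3e-06 by edgeR) in mTEClo and 2.78 (SE 0.60, adjusted p = 0.0025 by edgeR) without Aire. Irx2, the neighbour of Irx1, was 0.563, 1.73, 2.20, 2.34 and 5.02 CPM in Ctrl mTEChi, 11.2, 11.8 and 13.5 CPM in EEDcKO, 0, 1.13 and 1.37 CPM in AireKO and 2.89, 4.71 and 10.9 CPM in AireEEDdKO. The mTEClo level was 0.676, 0.701 and 1.69 CPM in Ctrl and 9.81, 14.4, 15.5 and 16.9 CPM in EEDcKO. These pairs did not overlap, with log2 fold changes of 2.21 (SE 0.42, adjusted p = 0.00038 by edgeR), 3.85 (SE 0.57, adjusted p = 3.1e-05 by edgeR) and 2.80 (SE 0.67, adjusted p = 0.0055 by edgeR), the last lost without mTEChi AireEEDdKO replicate 3 (log2 fold change 2.00).

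Irx4 lies in the same locus. It was 21.1, 28.9 and 50.5 CPM in EEDcKO mTEChi beside the Ctrl values above (log2 fold change 1.95, SE 0.38, adjusted p = 0.00053 by edgeR). In mTEClo it was 2.25, 3.51 and 4.05 CPM in Ctrl and 6.06, 8.62, 13.0 and 14.4 CPM in EEDcKO (log2 fold change 1.65, SE 0.52, adjusted p = 0.018 by edgeR), a call lost in separate fits without mTEClo Ctrl replicates 1, 2 and 3 (log2 fold changes 1.42 to 1.76). AireEEDdKO mTEChi had 11.6, 16.5 and 29.5 CPM, which overlapped AireKO (log2 fold change 0.76, SE 0.46, adjusted p = 0.3 by edgeR). Of the chromosome 8 cluster, Irx5, a factor of heart and retina, was 0.703, 1.06, 1.10, 1.69 and 2.31 CPM in Ctrl mTEChi and 2.84, 5.66 and 6.81 CPM in EEDcKO (log2 fold change 1.94, SE 0.42, adjusted p = 0.0013 by edgeR). The mTEClo level was 0, 0.338 and 0.563 CPM in Ctrl and 6.56, 7.90, 8.42 and 11.1 CPM in EEDcKO, in all 125 against 2 counts, a 32.9-fold ratio (95% counting interval 8.93 to 275, edgeR adjusted p = 3.5e-06). Both were apart. Irx5 was 0, 0.283 and 0.685 CPM in AireKO mTEChi and 1.28, 2.31 and 2.36 CPM in AireEEDdKO mTEChi, in all 12 against 2 counts, a 5.91-fold ratio (95% counting interval 1.32 to 54.4, edgeR adjusted p = 0.037). That call was lost in separate fits without mTEChi AireKO replicates 2 and 3 and mTEChi AireEEDdKO replicates 1 and 2 (log2 fold changes 2.10 to 2.31). Irx3 was 0.825, 1.32, 1.73, 2.25 and 3.04 CPM in Ctrl mTEChi and 4.37, 6.81 and 8.18 CPM in EEDcKO (log2 fold change 1.77, SE 0.36, adjusted p = 0.00074 by edgeR), and 0.563, 1.05 and 1.69 against 7.07, 10.9, 12.9 and 14.7 CPM in mTEClo (log2 fold change 3.25, SE 0.42, adjusted p = 6.2e-06 by edgeR). Its antisense transcript Irx3os overlaps 4.5% of its exon bases, and reads of both cannot be told apart there.

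Msx1 was 2.38, 3.30, 3.47, 3.94 and 5.39 CPM in Ctrl mTEChi and 16.1, 21.4 and 28.0 CPM in EEDcKO, with a log2 fold change of 2.57 (SE 0.39, adjusted p = 4.2e-05 by edgeR). In mTEClo it was 0, 1.75 and 2.7 CPM in Ctrl and 5.72, 9.70, 18.3 and 19.2 CPM in EEDcKO (log2 fold change 2.98, SE 0.52, adjusted p = 0.00018 by edgeR). Every EEDcKO library was above every Ctrl library. AireKO mTEChi had 0, 0 and 0.565 CPM and AireEEDdKO 5.20, 6.48 and 7.06 CPM, in all 42 against 2 counts, a 20.7-fold ratio (95% counting interval 5.38 to 176, edgeR adjusted p = 0.0015). Msx2 gave log2 fold changes of 1.39 (SE 0.57, adjusted p = 0.065 by edgeR) and 2.01 (SE 0.77, adjusted p = 0.052 by edgeR) and was not called. Msx3 went the other way in mTEChi, 1.26, 3.10 and 4.59 CPM in EEDcKO against 8.66, 8.71, 9.63, 11.7 and 12.4 CPM in Ctrl (log2 fold change -1.71, SE 0.56, adjusted p = 0.023 by edgeR), and lost this call without mTEChi EEDcKO replicate 3 (log2 fold change -1.31).

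Dlx5 was 2.81, 3.30, 3.47, 5.02 and 7.26 CPM in Ctrl mTEChi, 11.8, 11.8 and 23.3 CPM in EEDcKO, 6.78, 10.3 and 11.7 CPM in AireKO and 17.3, 29.5 and 34.1 CPM in AireEEDdKO. The mTEClo level was 0.701, 1.69 and 1.69 CPM in Ctrl and 5.03, 6.06, 6.06 and 8.32 CPM in EEDcKO. The log2 fold changes were 1.77 (SE 0.33, adjusted p = 0.00031 by edgeR), 2.25 (SE 0.48, adjusted p = 0.0012 by edgeR) and 1.52 (SE 0.37, adjusted p = 0.0058 by edgeR), and the last call was lost without mTEChi AireKO replicate 3 (log2 fold change 1.27). Dlx5 libraries without EED thus lay above their controls with no overlap. Dlx4, expressed in placenta and blood cells, was 1.13, 2.31, 2.81, 3.03 and 3.96 CPM in Ctrl mTEChi and 5.91, 8.05 and 8.49 CPM in EEDcKO (log2 fold change 1.38, SE 0.40, adjusted p = 0.0099 by edgeR). In mTEClo it was 0.563, 1.05 and 1.35 CPM in Ctrl and 7.19, 7.89, 8.33 and 9.77 CPM in EEDcKO (log2 fold change 2.94, SE 0.52, adjusted p = 0.00018 by edgeR). Dlx4 was not called without Aire (log2 fold change 1.11, SE 0.67, adjusted p = 0.29 by edgeR), and 2.4% of its exon bases overlap Dlx4os on the other strand.

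Six3, a factor of forebrain and eye, was 1.17, 1.38, 2.11, 2.31 and 3.38 CPM in Ctrl mTEChi and 5.91, 10.5 and 10.7 CPM in EEDcKO (log2 fold change 2.18, SE 0.48, adjusted p = 0.0015 by edgeR). The mTEClo level was 0, 0 and 1.13 CPM in Ctrl and 1.01, 2.52, 4.67 and 5.33 CPM in EEDcKO, in all 51 against 2 counts, a 13.4-fold ratio (95% counting interval 3.53 to 114, edgeR adjusted p = 0.0029). The mTEChi groups were apart and the mTEClo groups overlapped. AireKO had 0, 0 and 0.283 CPM and AireEEDdKO 0.962, 2.89 and 2.94 CPM, in all 13 against 1 count, a 12.8-fold ratio (95% counting interval 1.92 to 544, edgeR adjusted p = 0.035), a call lost in separate fits without mTEChi AireKO replicates 1, 2 and 3 and mTEChi AireEEDdKO replicates 1 and 2 (log2 fold changes 3.16 to 5.66). Six3 shares 1.9% of its exon bases with Six3os1. Six2 and Six5 also rose in mTEChi, by 1.34 ± 0.20 and 1.77 ± 0.37 on the log2 scale (± SE), and were not called in mTEClo (0.33 ± 0.20 and 0.84 ± 0.32). Pax1, Pax9 and Six4 were not called in EEDcKO of either subset. In mTEChi the log2 fold changes were 0.73 (SE 0.17, adjusted p = 0.0019 by edgeR) for Pax1, 0.87 (SE 0.14, adjusted p = 5.5e-05 by edgeR) for Pax9 and 0.15 (SE 0.10, adjusted p = 0.24 by edgeR) for Six4. In mTEClo they were -0.23 ± 0.17, 0.48 ± 0.14 and -0.09 ± 0.10 (± SE).

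Pax3 rose in mTEClo and, without Aire, in mTEChi. In mTEClo it was 0.701, 1.69 and 1.69 CPM in Ctrl and 8.42, 8.62, 15.7 and 25.4 CPM in EEDcKO (log2 fold change 3.45, SE 0.53, adjusted p = 4.6e-05 by edgeR). AireEEDdKO mTEChi, whose values stand above, exceeded AireKO by a log2 fold change of 4.43 (SE 0.64, adjusted p = 4.2e-05 by edgeR). These pairs did not overlap, but EEDcKO and Ctrl mTEChi did, and the log2 fold change there was 0.99 (SE 0.37, adjusted p = 0.043 by edgeR), below the 2-fold limit. Pax6 rose in mTEClo by 1.44 (SE 0.36, adjusted p = 0.0042 by edgeR), and Pax2 in mTEChi by 1.25 (SE 0.46, adjusted p = 0.04 by edgeR), a call lost in separate fits without mTEChi Ctrl replicates 1, 3, 4 and 5 and mTEChi EEDcKO replicates 2 and 3 (log2 fold changes 0.73 to 1.35). Pax5 and Pax7 were called lower in EEDcKO mTEClo, with log2 fold changes of -1.43 ± 0.49 and -1.65 ± 0.46 (± SE). Aire was lower there too, at 60.6 to 312 CPM against 324 to 333 CPM in Ctrl mTEClo, and its part was not tested. Pax7 lost the call without mTEClo Ctrl replicate 1 (log2 fold change -1.42) and Pax5 in separate fits without mTEClo Ctrl replicate 2 and mTEClo EEDcKO replicates 1, 2 and 4 (log2 fold changes -1.42 to -1.01).

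Lhx9, a LIM factor of gonad and limb, was 0.937, 1.73, 1.93, 4.49 and 4.50 CPM in Ctrl mTEChi and 5.58, 7.0 and 14.5 CPM in EEDcKO (log2 fold change 1.79, SE 0.46, adjusted p = 0.0051 by edgeR), a call lost without mTEChi EEDcKO replicate 3 (log2 fold change 1.29). AireKO had 0, 0.685 and 1.41 CPM and AireEEDdKO 5.45, 7.51 and 14.1 CPM (log2 fold change 3.25, SE 0.70, adjusted p = 0.0023 by edgeR). Both pairs were apart, whereas in mTEClo 0.563, 2.36 and 2.81 CPM in Ctrl and 1.08, 1.26, 2.36 and 2.56 CPM in EEDcKO overlapped (log2 fold change -0.15, SE 0.61, adjusted p = 0.89 by edgeR). Nkx2-4, related to the thyroid factor Nkx2-1, was 0.528, 0.825, 1.87, 2.81 and 4.04 CPM in Ctrl mTEChi and 5.58, 5.91 and 17.9 CPM in EEDcKO (log2 fold change 2.47, SE 0.64, adjusted p = 0.0049 by edgeR), lost without mTEChi EEDcKO replicate 3 (log2 fold change 1.70). In AireKO it was 0, 0.283 and 0.685 CPM and in AireEEDdKO 0.962, 5.78 and 8.24 CPM, in all 27 against 2 counts, a 13.3-fold ratio (95% counting interval 3.34 to 115, edgeR adjusted p = 0.031). Same-numbered AireKO and AireEEDdKO libraries deviated together, and with the replicate as a block the calls of Nkx2-4 and Lhx2 were lost (edgeR adjusted p = 0.053 and 0.06), which left 9 of the 11. In the same comparison the call of Nkx2-4 was lost in 5 of 6 leave-one-out fits and that of Lhx2 in all 6. Lhx2 was at 0 in AireKO and at least 3.04-fold higher in AireEEDdKO. Of the other Nkx genes, Nkx2-3 and Nkx2-9 rose in both EEDcKO comparisons, and in Ctrl mTEClo both were at 0, so they were at least 3.8-fold and 5.3-fold higher in EEDcKO mTEClo. In mTEChi their log2 fold changes were 2.02 (SE 0.59, adjusted p = 0.012 by edgeR) and 2.32 (SE 0.63, adjusted p = 0.0089 by edgeR), and Nkx2-3 lost the call without mTEChi EEDcKO replicate 1 (log2 fold change 1.55). The members called higher beside those described were Dlx2 (2.18) and Nkx2-6 (2.25) in EEDcKO mTEChi, Nkx1-2 (1.82) and Nkx2-1 (2.54) in EEDcKO mTEClo, and Pax5 (1.40) in AireEEDdKO mTEChi, each given as a log2 fold change.

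**Figure D5:**
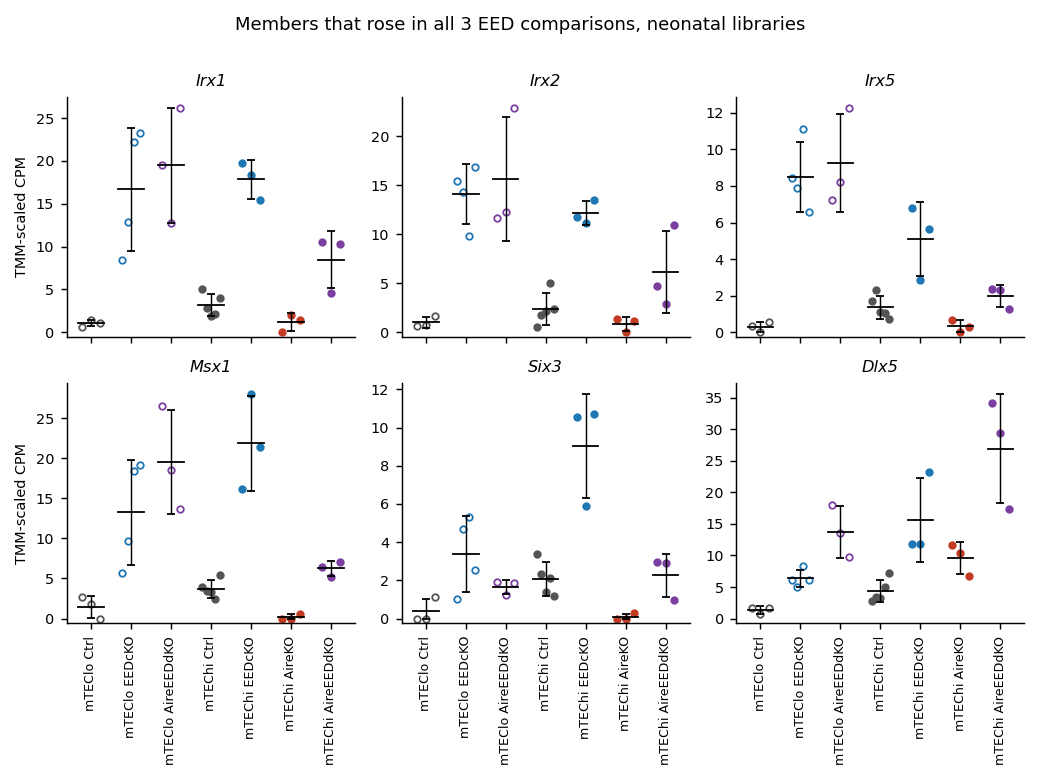
Level of Irx1, Irx2, Irx5, Msx1, Six3 and Dlx5, the members called higher in all 3 comparisons of EED loss, in CPM (y axis, from 0) in the 7 neonatal groups (x axis). Points are libraries (filled mTEChi, open mTEClo), bars the mean and whiskers the SD; EEDcKO libraries lie above Ctrl in mTEChi for each gene, and AireEEDdKO lies above AireKO.

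Leaving out each library in turn kept 14 of the 18 higher calls in EEDcKO mTEChi, 12 of 15 in mTEClo and 4 of 11 in AireEEDdKO mTEChi (Irx1, Lhx9, Msx1 and Pax3). In AireEEDdKO against AireKO the number of calls went from 11 to between 6 and 9 in these fits: to 7, 6 and 6 without AireKO replicate 1, 2 and 3, and to 6, 7 and 9 without AireEEDdKO replicate 1, 2 and 3. Without EEDcKO mTEClo replicate 3, Nkx1-2 (1.73, edgeR adjusted p = 0.053) and Nkx2-1 (2.10, edgeR adjusted p = 0.07) were no longer called in mTEClo. Neither call depended on that library alone, since each was lost in 4 leave-one-out fits (log2 fold changes 1.47 to 1.74 and 2.07 to 2.57). Markers of other cells moved with the EED comparisons. Mesenchyme markers were called higher for 8 of 10 in EEDcKO mTEClo, 5 of 10 in EEDcKO mTEChi and 5 of 10 in AireEEDdKO mTEChi, and 0 were lower. Their summed level was 1167 to 1622 CPM in EEDcKO mTEClo against 390.5 to 537.3 in Ctrl, 793.5 to 1094 CPM in EEDcKO mTEChi against 448.6 to 484 in Ctrl, and 663.1 to 827.1 CPM in AireEEDdKO against 353.1 to 446.9 in AireKO. Prrx1, a homeobox gene of limb and face mesenchyme outside the rule, rose by 7.14 on the log2 scale in mTEClo and by 3.27 in mTEChi (edgeR adjusted p = 7.6e-09 and 7.7e-06). Of the 10 markers, Pdgfra alone was at 0 in a neonatal group, AireKO mTEChi. Myoid markers were called higher for 4 of 10 in EEDcKO mTEChi (232.9 to 319.5 CPM summed against 80.28 to 116.2), and for 4 higher and 1 lower of 10 in mTEClo (274.8 to 464.6 against 84.17 to 101.8). In AireEEDdKO mTEChi 6 of 10 were higher, 409 to 600.5 CPM summed against 87.46 to 153.1 in AireKO. Cortical markers fell for 8 of 8 in EEDcKO mTEClo, 462.3 to 1213 CPM summed against 2663 to 3965 in Ctrl, and for 1 of 8 in mTEChi. EEDcKO mTEClo replicates 3 and 4 came from older mice than any Ctrl mTEClo library. The cortical gene Psmb11 was 5.76 and 4.04 CPM in them, and 52.9 and 81.9 CPM in EEDcKO replicates 1 and 2. With age as a term, 17 members were called higher and 2 lower in EEDcKO mTEClo. The part of these cells in the member values was not tested.

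The effect of EED in mTEChi was also set against its effect in mTEClo and against Aire. For EED in mTEChi minus mTEClo, 0 members were called by edgeR (against 1.58% of all tested genes in either direction, 0.614% higher and 0.97% lower), 10 had an unadjusted p under 0.05, and DESeq2 called 3. For the interaction of Aire and EED in mTEChi, 1 member was called (against 0.807% higher), Pax3, whose change with EED loss was larger without Aire than with it by 3.44 (SE 0.78, adjusted p = 0.033 by edgeR). The difference in EED effect follows the values above, 0.99 with Aire and 4.43 without it on the log2 scale. It was lost in separate fits without mTEChi Ctrl replicate 3, mTEChi EEDcKO replicate 2, mTEChi AireKO replicates 1, 2 and 3 and mTEChi AireEEDdKO replicates 1 and 2 (log2 fold changes 3.06 to 3.80). The Aire and EED comparisons of this test use the same libraries, and no further member was read from it.

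Partners of these factors were read from a list of 18 genes of the network of Pax, Eya and Dach genes and the pharyngeal pouch. In neonates 16 were tested. In EEDcKO mTEChi 8 were called higher (against 8.48% of all tested genes) and 0 lower (against 5.4%). The higher ones were Dach1 (log2 fold change 1.50), Hoxa3 (1.77), Tbx1 (1.84), Ripply3 (1.39), Fgf10 (2.56), Shh (1.40), Bmp4 (2.19) and Chrd (1.88). Hoxa3 and Tbx1 pattern the pouch, and Fgf10, Shh and Bmp4 are signals between pouch and mesenchyme. In EEDcKO mTEClo 6 were higher (against 9.51%) and 0 lower (against 6.22%). In AireEEDdKO against AireKO 5 were higher (against 6.69%) and 0 lower (against 2.78%). In AireKO mTEChi 1 was higher (against 5.63%) and 4 lower (against 17.8%) of 14 in adults. In neonates 1 was higher (against 3.56%) and 3 lower (against 12.8%) of 16. The medians over the tested genes of that list were 1.4, 0.514 and 1.09 in the EED comparisons. A second list held 18 cofactors of LIM and TALE homeodomain proteins, with 16 tested. In EEDcKO mTEChi 2 were higher (against 8.48% of all tested genes), Ldb1 (1.13), the bridge between LIM factors, and Lmo2 (1.69). In EEDcKO mTEClo 3 were higher (against 9.51%), Ldb1 (1.14), Meis3 (1.39) and Tle2 (2.48). In AireEEDdKO mTEChi 1 was higher (against 6.69%), Ldb1 (1.04), and 0 were lower in each of these 3 comparisons. In AireKO mTEChi 1 was higher (against 5.63%) and 2 lower (against 17.8%) in adults. In neonates 0 were higher (against 3.56%) and 2 lower (against 12.8%). Counts this small are not read as a result about the cofactors.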

How the data were processed

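RNA of sorted mTEChi and mTEClo was read by bulk RNA sequencing in 47 libraries (23 adult, 24 neonatal, 11 groups). The deposited values are raw counts per Ensembl gene in 2 tables, which the authors made from RamDA-type libraries trimmed with fastp, aligned with STAR 2.7.3a to mm10 (GRCm38), cleared of reads with a mapping quality under 5 with SAMtools 1.9 and of duplicates with Picard 2.21.1, and counted with HTSeq 0.11.2 without strand. The Ensembl release is not given in the sources used here. The authors' normalized tables were not used. Every column mapped to a sample (0 left over). The lowest chi-square per degree of freedom between libraries of a group was 1.23, so none was counted as a duplicate.

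Symbols, types and positions came from the GRCm38 annotation. The members and all gene lists were chosen with earlier results of these data known. Each table was fitted whole in edgeR 4.0.16 (R 4.3.3, limma 3.58.1), with filterByExpr by group (19310 adult and 20196 neonatal genes tested), TMM scaling, all groups of the table in 1 quasi-likelihood fit and a prior count of 0.125, and p-values were adjusted by Benjamini-Hochberg over all tested genes. A call needs an adjusted p under 0.05 and at least a 2-fold change. The biological coefficient of variation was 14.5% in adults and 19.8% in neonates. CPM are TMM-scaled. Bounds against a group at 0 use 3 counts over the group, and intervals of count ratios are exact at 95% and, like bounds, cover counting error only. The fit was tested on simulated data, and DESeq2 1.42.0 was an alternative. Tables and figures used Python 3.11.15, pandas 2.3.3 and matplotlib 3.10.9.

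Members were named by a rule: up to 12 called in at least 2 of the 3 EED comparisons, up to 8 called in AireKO mTEChi of either age, up to 8 called between mTEChi and mTEClo of controls, each by smallest adjusted p, then all interaction calls and Pax1, Pax9 and Six4. Results on some members are not reported here. Replicate numbers are shared between groups. Deviations of same-numbered libraries correlated over 0.1 in every pair of 2 comparisons, adult AireKO mTEChi against mTEClo (0.241, 0.271, 0.166 and 0.321) and neonatal AireEEDdKO against AireKO mTEChi (0.193, 0.194 and 0.284), and elsewhere the numbers served as names. The alternatives were other scaling, filters and tools, terms for replicate, sex and age, fits of fewer groups or libraries, and leaving out each library. A term for the kind of library was added after the data were seen.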

Additional observations from a re-analysis of the deposited data

Results flagged for a closer look

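Of 136 groups of 4 to 10 libraries tested over members, 9 held a library whose gap to the next was above the Dixon limit, where chance gives about 1 in 20 (6.8). In neonatal EEDcKO mTEClo, replicate 3 was the highest library for Lhx1 (9.81 CPM against 0.505 to 1.01), Lhx3 (5.33 against 0.337 to 0.719) and Msx3 (7.04 against 0.757 to 1.68). In AireKO of adults, replicate 4 was the highest for Dlx5 in mTEClo (4.61 CPM against 1.62 to 1.88) and in mTEChi (17.1 against 11.8 to 12.3). Among WT adults, Irx4 was 6.38 CPM in mTEClo replicate 7 against 1.84 to 3.66 in the others, Pax8 2.8 CPM in mTEClo replicate 5 against 0 to 0.636, Pax2 3.18 CPM in mTEClo replicate 2 against 0.51 to 1.53, and Six3 2.58 CPM in mTEChi replicate 6 against 0.62 to 1.43.

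The adult effect of Aire differed between mTEChi and mTEClo in the interaction test, with differences in log2 fold change of -6.67 for Irx1, -2.58 for Irx4, -4.04 for Lhx3, -2.59 for Msx1 and -1.15 for Pax1 (edgeR adjusted p = 0.0018, 0.0002, 0.029, 9.3e-05 and 1.8e-05). In mTEChi of neonates, the effect of EED loss on Pax3 differed with Aire by 3.44 on the log2 scale (edgeR adjusted p = 0.033).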

How the results depend on the processing

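No member's fold change changed direction under any alternative. Of the recomputed values of called members, leave-one-out fits aside, 1460 passed the threshold of their setting and 99 did not. In leave-one-out fits 1319 did and 218 did not. The setting with no minimum change kept the main fit with a looser limit, so its 170 values, counted in the 1460, passed by construction. Values of members not called were not recomputed. Scaling by library size alone moved the median of all genes by -0.161 in adult AireKO against WT mTEChi. The number of members called in adult mTEChi AireKO was 15, 30 without the filter on low counts and 8 with the kind of library as a term. In adult mTEClo it was 5, 11 with no minimum change, 1 with age as a term and 2 with only the groups compared. Between adult WT mTEChi and mTEClo it was 21, and 40 without the filter. The adult Aire effect in mTEChi minus mTEClo gave 5, 8 with DESeq2, 8 without mTEChi AireKO replicate 3, and 4 to 8 over all left-out libraries. With only the groups compared, calls went from 17 to 10 in EEDcKO mTEClo, from 11 to 4 in AireEEDdKO against AireKO, from 18 to 9 in AireEEDdKO against EEDcKO mTEChi and from 5 to 0 in mTEClo. That mTEClo comparison gave 8 without the filter, 8 with sex as a term and 2 with the replicate block, and 2 to 7 with 1 library left out. The effect of EED in mTEChi minus mTEClo gave 0, and 1 with RLE size factors, 3 without the filter, 3 with DESeq2, 1 with no minimum change, 1 with the replicate block and 2 with only the groups compared. With 1 library left out, counts were 6 to 9 in AireEEDdKO against AireKO, 11 to 21 in neonatal Ctrl mTEChi against mTEClo, 0 to 1 for the interaction of Aire and EED and 0 to 3 for the difference in EED effect. The cause of these shifts was not tested.

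The replicate block ended 21 of the member calls, 2 of them, Lhx2 and Nkx2-4 in AireEEDdKO against AireKO, where the numbers pair the libraries. Outside the 2 paired comparisons same-numbered libraries did not deviate together in every pair, and not every library correlated best with its own number. Libraries with different numbers but matching age and sex, as in neonatal Ctrl mTEChi and mTEClo, were not tested as pairs. The main fits took them as unpaired. Depth limits the low members: 12 were never tested, and folds of members with few counts have wide intervals.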

Other observations

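The remaining marker lists gave these calls, with the number higher and lower of those tested. In EEDcKO mTEChi they were 0 and 0 of 9 for endocrine cells, 2 and 3 of 10 for thyroid and lung, 0 and 0 of 4 for parathyroid, 0 and 1 of 7 for thymocytes, 0 and 1 of 6 for endothelium and 1 and 0 of 10 for mTECs. In EEDcKO mTEClo they were 2 and 2 of 9 for endocrine cells, 2 and 1 of 10 for thyroid and lung, 0 and 0 of 4 for parathyroid, 0 and 0 of 7 for thymocytes, 1 and 2 of 6 for endothelium and 0 and 1 of 10 for mTECs. In adult AireKO mTEChi, endocrine markers were lower for 5 of 10 and thyroid and lung markers for 4 of 9, with 1 higher.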
